A study of Mus musculus with 16 samples.

Results

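Integrins are the transmembrane receptors by which endothelial cells (ECs) hold on to the matrix around them. The genes described here are the 10 integrin subunits through which ECs bind matrix, Itga1, Itga2, Itga3, Itga5, Itga6, Itga9, Itgav, Itgb1, Itgb4 and Itgb5. They were taken by symbol from a table of 43346 genes, and all 10 were found and all 10 were tested in every comparison. Transcripts were counted in ECs sorted from the lungs of FVB mice that were 2 months old (young) or 18 months old (aged). The mice had received PBS (sham) or bleomycin, which damages the lung and brings on fibrosis. By the paper, that fibrosis resolves in young mice and persists in aged mice. The 16 libraries comprise 5 of Young Sham, 4 of Young Bleo, 3 of Aged Sham and 4 of Aged Bleo. By the methods of the study, all mice carried a Col1a1-GFP reporter transgene, the bleomycin mice were taken about a month after delivery into the trachea, and the sorted cells were positive for CD31 and negative for CD45, EpCAM and GFP. GFP marks cells that transcribe the collagen gene Col1a1, so ECs that had switched on that gene would also have been left out of the sort.

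Each integrin is a pair of an alpha and a beta chain, and the pair sets what is bound. The beta 1 chain (Itgb1) is the common partner of alpha 1 and alpha 2, which bind collagens, of alpha 3 and alpha 6, which bind laminins, of alpha 5, which binds fibronectin, and of alpha 9, which binds tenascin-C among other ligands. The beta 4 chain (Itgb4) is known to pair with alpha 6 alone and the beta 5 chain (Itgb5) with alpha v alone, the latter as a receptor for vitronectin. In the lung, aerocytes (the large capillary ECs specialised for gas exchange) lie beside general capillary ECs, and both rest on a basement membrane of laminins and type IV collagen.

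The subunits lie on 7 chromosomes of the mm10 genome, all as protein-coding genes. Itga3 spans chr11:95044474-95076801 on the minus strand, Itgb5 spans chr16:33829665-33949153 on the plus strand and Itga5 spans chr15:103344289-103366763 on the minus strand, as the deposited table gives them. In the GENCODE annotation of the same build no exon of these 3 genes shares bases with an exon of another gene. The stretches just before the starts of these genes are shown because Itga3 and Itgb5 were the subunits whose transcripts moved together most closely and Itga5 was the subunit that rose after injury at both ages. Sequences are those of RefSeq on GRCm38.p6, written 5′ to 3′ on the strand of the gene, and capitals mark GGGCGG or its reverse complement CCGCCC, the core of the GC box. The Itga3 stretch is chr11:95076802-95076964, the Itgb5 stretch is chr16:33829415-33829664 and the Itga5 stretch is chr15:103366792-103367041.
Itga3: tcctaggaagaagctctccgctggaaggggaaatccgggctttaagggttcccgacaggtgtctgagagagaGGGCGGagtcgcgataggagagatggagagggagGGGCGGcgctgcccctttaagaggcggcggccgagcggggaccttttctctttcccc
Itgb5: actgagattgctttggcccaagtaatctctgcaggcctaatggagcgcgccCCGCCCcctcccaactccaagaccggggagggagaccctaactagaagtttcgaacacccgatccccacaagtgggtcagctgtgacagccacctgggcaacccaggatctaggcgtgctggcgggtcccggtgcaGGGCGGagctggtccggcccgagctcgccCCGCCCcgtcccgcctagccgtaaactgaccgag
Itga5: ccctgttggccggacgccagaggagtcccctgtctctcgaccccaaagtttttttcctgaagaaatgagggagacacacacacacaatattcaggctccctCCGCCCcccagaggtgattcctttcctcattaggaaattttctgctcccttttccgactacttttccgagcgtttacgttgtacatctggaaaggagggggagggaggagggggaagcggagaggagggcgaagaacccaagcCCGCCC

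The Itga3 stretch was cut to 163 bases so that it ended before the first annotated exon, and the other two hold 250 bases. GGGCGG occurred 2 times in the Itga3 stretch, 3 times in that of Itgb5 and 2 times in that of Itga5. Searched on both strands, it occurs in 18.4% of all promoter windows cut to 163 bases and in 32.7% of those of 250 bases. AGGAAG, a form of the core bound by ETS factors (the family of the endothelial regulator Erg), occurred 1 time in the Itga3 stretch and 0 times in the other two, against 19.6% and 29.5% of windows of those lengths that hold it. The 3 stretches were 62.6%, 65.2% and 55.6% G and C. These matches describe the letters of the windows. RefSeq promoter windows were matched for 8 of the 10 subunits, and Itga6 and Itgb4 were not matched.

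Libraries held 20.9 to 71.0 mega-counts, and no subunit had fewer than 218 counts in any of them. Pecam1, which encodes CD31, had 48835 to 88941 normalized counts in every library, whereas Epcam did not exceed 167.3 and Ptprc, which encodes CD45, did not exceed 938.4. The other endothelial markers were not all as even. The 8 markers summed to 636089 to 753707 normalized counts in Young Sham and 375453 to 506799 in Young Bleo, with 3 called lower and 2 higher. The median of Kdr, which encodes a VEGF receptor, was 98036 in Young Sham and 22688 in Young Bleo, and that of Cldn5, a tight junction gene, was 216882 and 114193. Markers of other cells were nevertheless unevenly spread. The summed platelet markers (6 of 6 genes in the table) reached 330640 normalized counts in Aged Sham 14, and were also higher in Aged Sham 13 and 15 (94363 and 58650) than in any Young Sham library (24725 to 47470). They were 9170 to 20220 in Young Bleo and 5396 to 41042 in Aged Bleo. Of the 6 markers, 4 were called higher in Aged Sham against Young Sham and 6 lower in Aged Bleo against Aged Sham, and without Aged Sham 14 these counts were 0 and 1. The summed macrophage markers (8 of 9 genes in the table) ran from 3230 to 5325 in Young Sham and from 7484 to 23121 in Aged Sham, against 17823 to 54996 in Young Bleo and 25697 to 176965 in Aged Bleo, with the highest value in Aged Bleo 1. Summed mesothelial markers (5 of 5 genes in the table) were 0.978 to 273.5 in Young Sham, against 1204 to 3599 in Young Bleo, 807.3 to 3244 in Aged Sham and 218.9 to 1330 in Aged Bleo, and 4 of 5 were called higher in Aged Sham than in Young Sham.

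Levels can be compared between genes only per length, for which FPKM (fragments per kilobase, set relative to library size) served. Itgb1 was the most abundant subunit, with a mean of 68.3 FPKM over the 16 libraries, and was above 99.1% of all genes in the table by that mean. Itga3 followed with 33.9 FPKM, Itgb5 with 24.5, Itga1 with 11.5, Itga5 with 8.07 and Itga6 with 6.54. The remaining subunits were lower, with 2.47 FPKM for Itga2, 1.46 for Itgb4, 1.07 for Itga9 and 0.516 for Itgav. The order among the most abundant held in Young Sham, where Itga3 was at 52.3 ± 6.11 FPKM (SD, n = 5) and Itgb5 at 37.0 ± 4.89 (SD, n = 5). In Young Bleo the neighbours in the order could not be set apart, since Itga3 was at 16.2 ± 11.4 FPKM (SD, n = 4), Itga5 at 12.1 ± 1.52 (SD, n = 4) and Itgb5 at 9.87 ± 10.5 (SD, n = 4). Across the libraries Itgb5 FPKM varied most, with a highest value 11.1 times the lowest, and Itgav varied least, with a ratio of 1.78.

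**Figure D1:**
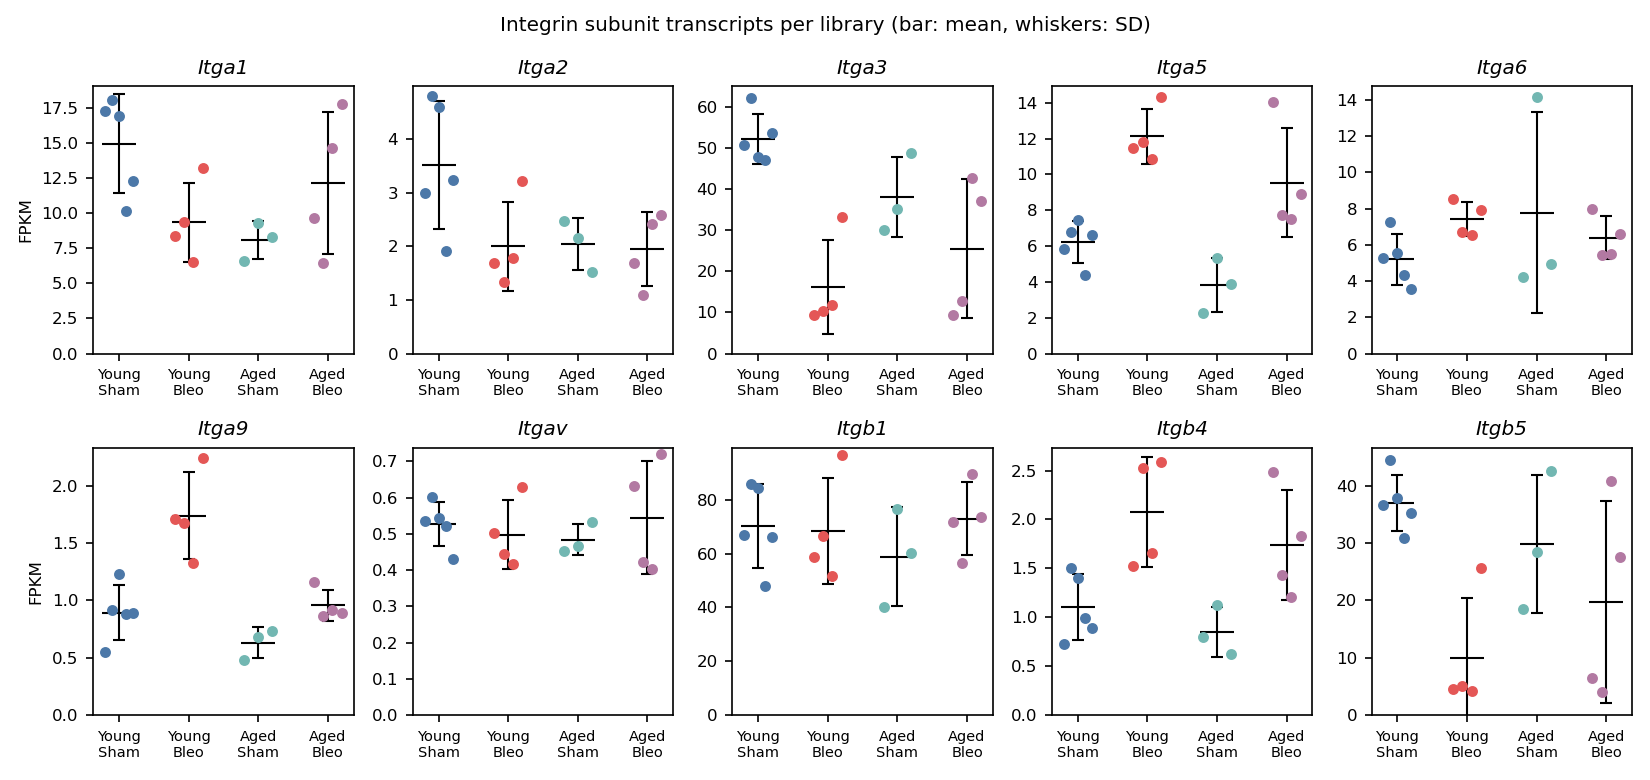
FPKM of each integrin subunit (y axis, linear from 0) in the 4 groups (x axis). Points are libraries, the bar is the group mean and the whiskers are the SD, drawn only down to 0. Itga3 and Itgb5 were high in all 5 Young Sham libraries and widely spread in both bleomycin groups, whereas the values of Itgb1 and of Itgav overlapped between all groups.

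The first comparison asked how the young endothelium had changed after bleomycin. The laminin-binding chain Itga3 and the vitronectin-receptor chain Itgb5 fell, by 3.35-fold and 3.92-fold, and the collagen-binding chains Itga1 and Itga2 fell by 1.63-fold and 1.79-fold. The fibronectin-binding chain Itga5 rose 1.92-fold, Itga9 rose 1.91-fold and Itgb4 rose 1.85-fold. Itgb1, Itga6 and Itgav were not called. The call needed a log2 difference of 0.5 or more in either direction with a DESeq2 adjusted p no higher than 0.05, and 7 of the 10 subunits met this, 3 higher and 4 lower, where 13.9% of all 18515 genes tested did (7.57% higher and 6.35% lower). With edgeR 4 of 10 were called, namely Itga3, Itga5, Itga9 and Itgb4, against 9.78% of all genes. The median log2 difference of the 10 subunits was -0.09, beside 0.01 for all genes tested.

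The Itga3 normalized count was 29265, 34546, 26786, 28844 and 31465 in Young Sham 21 to 25, and 5390, 5905, 6922 and 17817 in Young Bleo 17 to 20. No Young Bleo library reached the lowest Young Sham library, and Young Bleo 20 stood well above the other 3. The log2 difference was -1.74 (SE 0.397, DESeq2 adjusted p = 0.000311, edgeR adjusted p = 0.0175), and it was -2.31 without Young Bleo 20. The Itgb5 normalized count was 12449, 14516, 12446, 11158 and 12171 in Young Sham and 1529, 1728, 1439 and 8095 in Young Bleo. Young Bleo 20 was again the library nearest to sham. The log2 difference of Itgb5 was -1.97 (SE 0.645, DESeq2 adjusted p = 0.0193), with an edgeR adjusted p of 0.0572. Without Young Bleo 20 the log2 difference was -3.001 (adjusted p = 7.5e-08), whereas the call was lost without Young Bleo 17, 18 or 19, with log2 differences of -1.72 to -1.76.

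The collagen receptors fell less. Itga1 encodes a receptor chain that favours type IV collagen, and its normalized count was 10437, 10505, 9899, 6498 and 7565 in Young Sham and 5020, 5585, 4020 and 7396 in Young Bleo. The groups overlapped through Young Bleo 20. The log2 difference was -0.71 (SE 0.255, DESeq2 adjusted p = 0.0388, edgeR adjusted p = 0.0862), and the call held in only 3 of the 9 fits that left out a library of these groups. In GENCODE, Itga1 shares 685 exonic bases with Gm49395 on the same strand, a gene that the deposited table does not hold. Itga2, which favours fibrillar collagen, was at 1278, 1967, 1893, 867 and 1402 in Young Sham and at 710, 559, 779 and 1268 in Young Bleo. Again Young Bleo 20 lay among the sham values. Its log2 difference was -0.84 (SE 0.306, DESeq2 adjusted p = 0.0424, edgeR adjusted p = 0.0912), and the call held in 2 of 9 such fits. Summed markers of pericytes and smooth muscle (8 of 8 genes in the table) were 9969 to 21837 normalized counts in Young Sham and 3712 to 9215 in Young Bleo. Their part in the lower integrin chains was not tested. Of 9 epithelial markers 2 were called lower and 0 higher, and their summed level (33037 to 61779 in Young Sham and 15737 to 44520 in Young Bleo) was carried by Hopx, with a median of 26187 against 3400. Of the alveolar markers, Sftpc had a median of 15562 in Young Sham and 16311 in Young Bleo, whereas Ager had 2649 and 890.

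Among the chains that rose, Itga5 had 2578, 2891, 3182, 2052 and 2968 normalized counts in Young Sham and 5033, 5163, 4935 and 5886 in Young Bleo. All 4 bleomycin libraries, Young Bleo 20 included, were above every sham library. The log2 difference was 0.94 (SE 0.230, DESeq2 adjusted p = 0.000892, edgeR adjusted p = 0.0128), and the call held in all 9 fits that left out a library. Itga9, which is known for its part in the valves of lymphatic vessels, was at 427, 686, 927, 728 and 701 in Young Sham and at 1315, 1283, 1057 and 1618 in Young Bleo. The groups did not overlap, and the highest value was that of Young Bleo 20. The log2 difference was 0.93 (SE 0.205, DESeq2 adjusted p = 0.000185, edgeR adjusted p = 0.00828). Summed lymphatic markers (7 of 7 genes in the table) were 71299 to 158064 normalized counts in Young Bleo, against 32919 to 45275 in Young Sham. Of the 7, 4 were called higher and 0 lower. Ccl21a carried the sum, with a median of 78245 in Young Bleo and 22742.5 in Young Sham, against 8999 and 7500 for Lyve1. The 4 systemic-type vessel markers summed to 10967 to 18235 in Young Bleo and 6127 to 6866 in Young Sham. Of these, 3 were called higher and 1 lower. Over the 16 libraries Itga9 had r = 0.73 with lymphatic and 0.75 with systemic-type markers. After group means were subtracted these were 0.024 and 0.31. The part of these markers in the Itga9 difference was not tested.

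Itgb4, the partner of alpha 6 with a long tail inside the cell, had 512, 1023, 964, 749 and 643 normalized counts in Young Sham and 1069, 1770, 1203 and 1701 in Young Bleo. The lowest bleomycin library was only just above the highest sham library. The log2 difference was 0.88 (SE 0.273, DESeq2 adjusted p = 0.012, edgeR adjusted p = 0.0378). Without Young Bleo 18 it was 0.77 and the call was lost (adjusted p = 0.0728). Over the 16 libraries Itgb4 had r = 0.74 with summed arterial and with general capillary markers, 0.67 with macrophage and -0.71 with aerocyte markers. After group means were subtracted these were 0.26, 0.42, 0.36 and -0.25. The part of these cell types in the Itgb4 difference was not tested. Itgb4 shares 537 exonic bases with a gene on the opposite strand, B230344G16Rik, which had 0 to 138 counts in the libraries. In all, 5 of the 10 subunits had no overlap between Young Bleo and Young Sham, 3 higher and 2 lower, where 14.8% of all genes tested had none.

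The 3 subunits that were not called differed in how narrowly the data bound them. Itgb1 had 20982 to 34105 normalized counts in Young Sham and 21870 to 36950 in Young Bleo, with a log2 difference of -0.07 and a 95% interval of -0.48 to 0.34. Itgav had 476 to 629 and 464 to 634, with a difference of -0.11 and an interval of -0.47 to 0.24. Itga6 had 3305 to 6381 and 6043 to 7696, with a difference of 0.49 and an interval of -0.09 to 1.07, so a rise of the size seen for Itga5 lies within its interval.

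**Figure D2:**
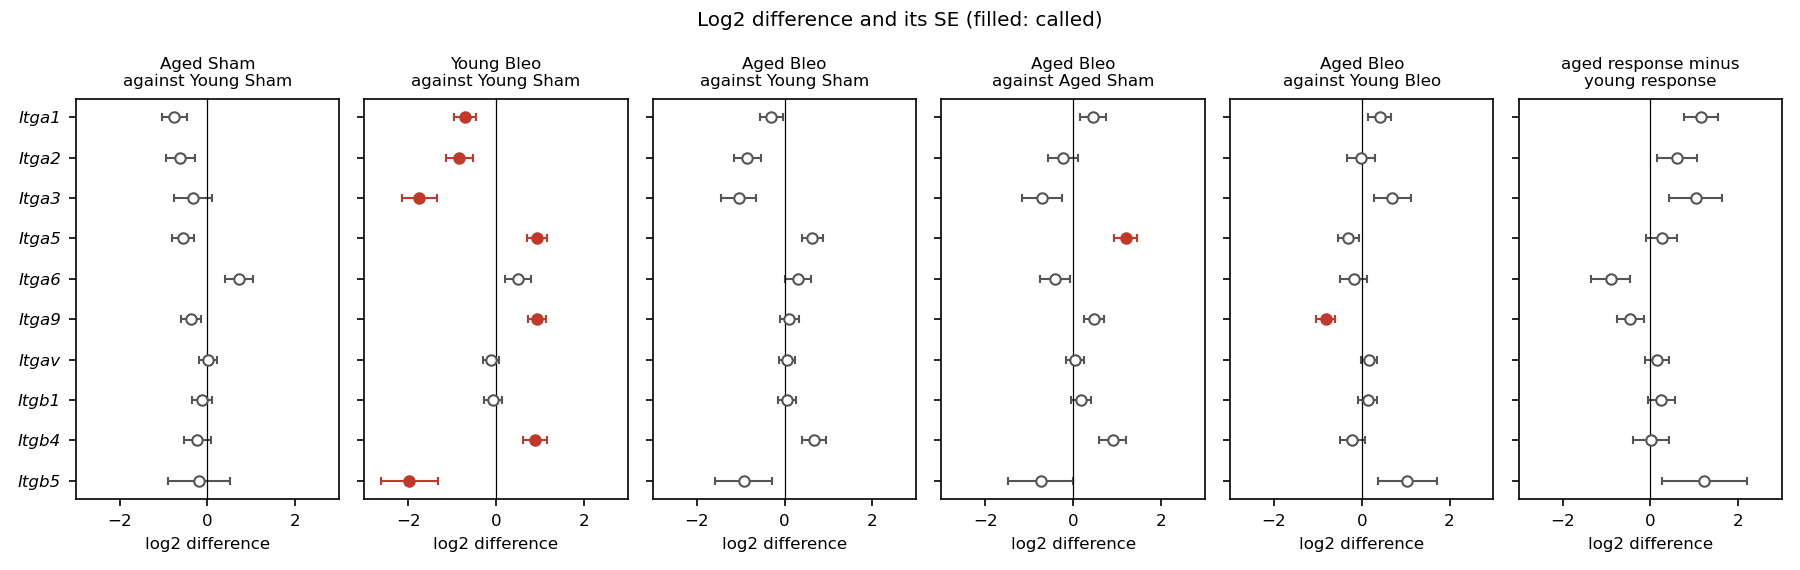
Log2 difference of each subunit (x axis) with its SE (whiskers) in the 5 pairwise comparisons and in the aged minus the young response, from DESeq2. Filled red points are called. The 7 filled points of Young Bleo against Young Sham lie on both sides of 0, and the other panels hold 2 in all, Itga5 in Aged Bleo against Aged Sham and Itga9 in Aged Bleo against Young Bleo.

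Age without injury was read from Aged Sham against Young Sham, and no subunit was called (0 of 10 by DESeq2 and 0 by edgeR, against 3.36% of all genes tested by DESeq2), although 3 had an unadjusted p under 0.05. Itga1 was at 4650, 6180 and 5201 normalized counts in Aged Sham 13 to 15, below all 5 Young Sham libraries. It was the only subunit with no overlap, where 8.73% of all genes had none. Its log2 difference was -0.75 (SE 0.277, DESeq2 adjusted p = 0.119), and a fit on these groups alone gave an adjusted p of 0.0097. Itga5 was at 1175, 2596 and 1780 in Aged Sham, with a log2 difference of -0.56 (SE 0.251, DESeq2 adjusted p = 0.243). Without Aged Sham 14 that difference was -0.88 and was called (adjusted p = 0.0316).

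Itga6 had the widest spread in the aged sham animals. It was at 4498, 14259 and 4663 normalized counts in Aged Sham 13 to 15, so that Aged Sham 14 stood far above the other 2, which lay within the Young Sham range. Platelets carry alpha 6, and Aged Sham 14 was also the library with the most platelet transcripts. The platelet integrin chains Itga2b and Itgb3 had 45444 and 34559 normalized counts there, against 6155 to 12391 and 4210 to 6792 in the other Aged Sham libraries. The log2 difference of Itga6 was 0.73 (SE 0.322, DESeq2 adjusted p = 0.238) with that library and -0.043 without it. Aged Sham 14 also had the highest macrophage sum of the Aged Sham libraries (23121 against 7484 and 7913) and the highest venous sum (82708 against 41555 and 49626). Among the 8 sham libraries Itga6 had r = 0.82 with platelet, 0.89 with macrophage and 0.78 with venous markers, and over all 16 libraries r = 0.22 (rho = -0.40) with platelet markers. The part of these cell types in the Itga6 value was not tested.

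The aged response to bleomycin was read against both sham groups. Of the 10 subunits, only Itga5 was called in Aged Bleo against Aged Sham, where 5.85% of all genes tested were called by DESeq2 and 0.797% by edgeR. Itga5 was at 6197, 3676, 3238 and 3875 normalized counts in Aged Bleo 1, 2, 3 and 5, each above all 3 Aged Sham libraries. It rose 2.29-fold, with a log2 difference of 1.20 (SE 0.262, DESeq2 adjusted p = 0.00063, edgeR adjusted p = 0.0445), and the call held in all 7 fits that left out a library (log2 difference 0.96 to 1.52). With limma voom the adjusted p was 0.0504. Itgb4 was at 1755, 1089, 832 and 1275 in Aged Bleo and 657, 878 and 459 in Aged Sham, with a log2 difference of 0.90 (SE 0.312, DESeq2 adjusted p = 0.0596). Only Aged Bleo 3 overlapped with sham, and Itgb4 was called without Aged Bleo 3 or without Aged Sham 14 (adjusted p = 0.0179 and 0.0171). Itga5 and Itga9 were the 2 subunits with no overlap, where 12.1% of all genes had none.

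Itga3 was at 5450, 7945, 24115 and 20996 normalized counts in Aged Bleo and at 20270, 22474 and 29182 in Aged Sham. Aged Bleo 1 and 2 were far below sham and Aged Bleo 3 and 5 were within or near its range. The log2 difference was -0.71 (SE 0.452, DESeq2 adjusted p = 0.415). Itgb5 was at 2173, 1468, 13521 and 9160 in Aged Bleo and at 7332, 10667 and 14955 in Aged Sham. The same 2 libraries were low. Its log2 difference was -0.74 with a 95% interval of -2.18 to 0.70, which includes the young difference of -1.97. The log2 difference of Itga6 was -0.41, and 0.35 without Aged Sham 14.

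Against Young Sham, which is also the control of the young comparison, 0 of 10 subunits were called in Aged Bleo by DESeq2 and 0 by edgeR, although 4 had an unadjusted p under 0.05 and 9.73% of all genes tested were called by DESeq2. Itga2, Itga5, Itga3 and Itgb4 were nearest to the threshold, with DESeq2 adjusted p of 0.0511, 0.0513, 0.0676 and 0.0967 and log2 differences of -0.85, 0.64, -1.05 and 0.67. In a fit on these groups alone Itga2, Itga3 and Itga5 were called, and without Aged Bleo 3 all 4 were. Itga3 was lower and Itga5 higher in every Aged Bleo library than in every Young Sham library, and 10.8% of all genes had no overlap.

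Between the bleomycin groups, Itga9 was lower in aged ECs. It was at 899, 724, 692 and 679 normalized counts in Aged Bleo, all below the 4 Young Bleo libraries, and the log2 difference was -0.82 (SE 0.215, DESeq2 adjusted p = 0.0216). It was the only subunit called of the 10, where 0.99% of all genes tested were, and the only one with no overlap, where 5.02% had none. The edgeR adjusted p was 0.222, and the DESeq2 call held in 2 of the 8 fits that left out a library. Summed lymphatic markers were 41713 to 67222 in Aged Bleo, below the Young Bleo range, with 1 of 7 called lower and 0 higher. The Ccl21a median was 34176 in Aged Bleo and 78245 in Young Bleo, and that of Lyve1 was 8777 and 8999. The part of these markers in the Itga9 difference was not tested. Without Young Bleo 20, Itga3 and Itgb5 were called higher in Aged Bleo (log2 differences 1.27 and 2.07, adjusted p = 0.0346 and 0.00625).

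A separate term, the aged minus the young response, asked if age changed the response. For it 0 of 10 subunits were called by DESeq2 and 0 by edgeR, 2 had an unadjusted p under 0.05, and 0.378% of all genes tested were called by DESeq2. The smallest p was that of Itga1, with a difference of 1.16 on the log2 scale (SE 0.386, DESeq2 adjusted p = 0.224). All 4 Young Bleo libraries were below the mean of their sham group for Itga1, and 3 of 4 Aged Bleo libraries were above theirs. Without Aged Bleo 2 or Young Bleo 20 the adjusted p was 0.0329 or 0.0443. For Itga5 and Itgb4 all 4 libraries of both bleomycin groups were above their sham mean, and the differences between the responses were 0.25 (95% interval -0.43 to 0.94) and 0.01 (-0.80 to 0.83).

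Aerocyte markers varied across the libraries together with Itga3 and Itgb5. The 6 aerocyte genes listed (Car4, Ednrb, Apln, Tbx2, Prx and Fibin) summed to 390087 to 482756 normalized counts in Young Sham and 318162 to 456433 in Aged Sham. In Young Bleo 17 to 20 the sums were 53103, 69843, 93482 and 230460, and in Aged Bleo 1, 2, 3 and 5 they were 50193, 87935, 317239 and 258650. The order of the bleomycin libraries by these sums placed Young Bleo 20 and Aged Bleo 3 and 5 highest, which were also the highest for Itga3 and for Itgb5. All 6 markers were called lower in Young Bleo against Young Sham, 2 of 6 in Aged Bleo against Young Sham and 0 in Aged Bleo against Aged Sham. In sorted bulk RNA, fewer cells of a type and less RNA per cell cannot be told apart.

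On the log2 scale, the correlation of Itga3 with the summed aerocyte markers over the 16 libraries was r = 0.99 (Spearman rho = 0.91), and r = 0.98 without the 2 libraries farthest from the median. Since the libraries share groups and cell content this is a description and carries no p. It was 0.99 among the 8 bleomycin libraries and 0.55 among the 8 sham libraries. For Itgb5 the values were r = 0.95 and rho = 0.77 over 16, r = 0.92 among the bleomycin libraries and 0.27 among the sham libraries. With the sum of the 8 endothelial markers, Itga3 had r = 0.91 and Itgb5 r = 0.84 over the 16 libraries. With the summed epithelial markers these were 0.75 and 0.71. The part of aerocyte content, or of the epithelial and other endothelial markers, in the differences of Itga3 and Itgb5 was not tested.

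Itga5 went with other vessel markers. Its correlation with the summed general capillary markers (Gpihbp1, Aplnr, Plvap, Kit, Cd93 and Sema3c) was r = 0.90 (rho = 0.82) over the 16 libraries, 0.50 among the 8 bleomycin libraries and 0.90 among the 8 sham libraries. General capillary markers summed to 144677 to 196837 normalized counts in Young Sham and to 203139 to 246519 in Young Bleo, with 2 of 6 called higher and 0 lower. The medians of Plvap (90805 and 80067) and Kit (7084 and 5593) were lower in Young Bleo. The aged sums were 111629 to 175140 without and 169457 to 227581 with bleomycin. With the summed arterial markers (7 of 7 genes in the table) the correlation was r = 0.88 over 16 libraries. Arterial sums were 41090 to 59481 in Young Sham and 78371 to 128984 in Young Bleo, with 4 of 7 markers called higher and 1 lower. With the summed macrophage markers Itga5 had r = 0.65 (rho = 0.68) over 16 libraries, 0.077 among the 8 bleomycin libraries and -0.23 among the 8 sham libraries. Aged Bleo 1 was highest for both, and 5 of 8 macrophage markers were called higher in Aged Bleo against Aged Sham. The part of these cell types in the rise of Itga5 was not tested.

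**Figure D3:**
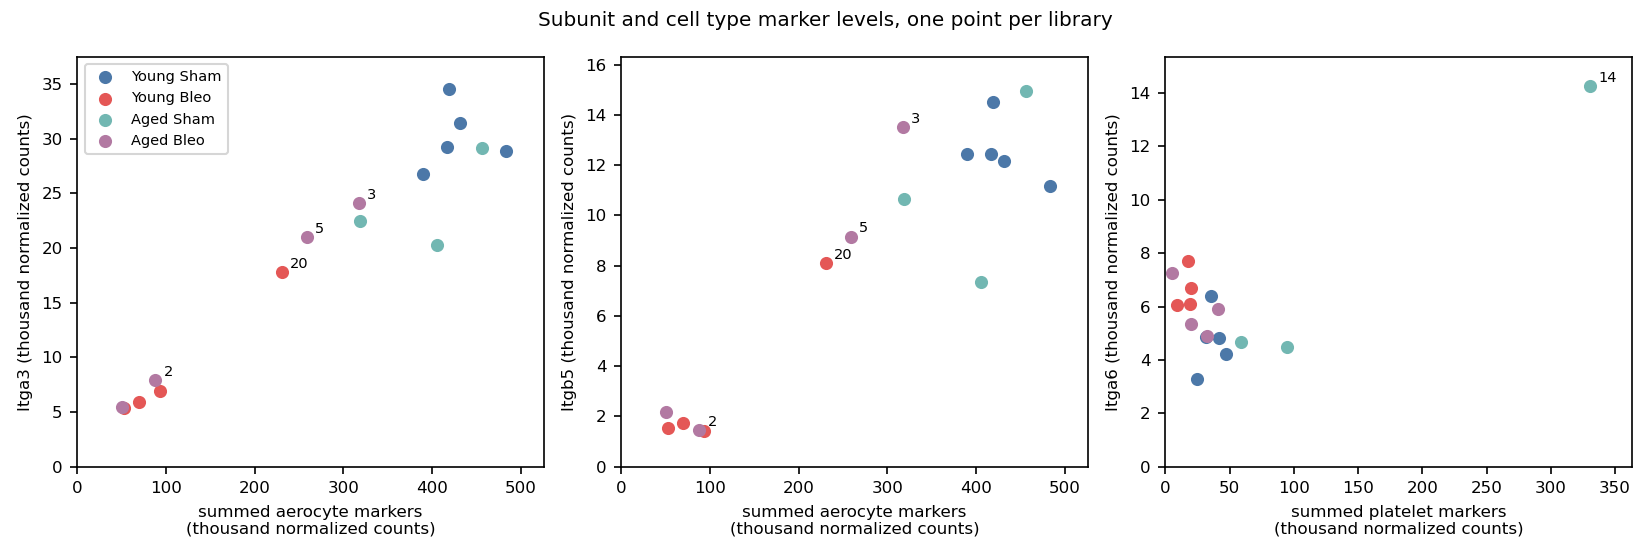
Normalized counts of Itga3 and Itgb5 against the summed aerocyte markers, and of Itga6 against the summed platelet markers (both axes linear from 0). Each point is a library coloured by group, and numbers name bleomycin libraries 20, 2, 3 and 5 and Aged Sham 14. Young Bleo 20 and Aged Bleo 3 and 5 lie above the other bleomycin libraries and towards or among the sham libraries, and Aged Sham 14 lies alone in the Itga6 panel.

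The genes whose patterns were nearest to each subunit were sought among 13764 genes by Pearson's r over the 16 libraries. For Itga3 they were Ednrb, the endothelin B receptor and an aerocyte marker, and Trib2, with r = 0.992 for each. For Itgb5 they were Alpl, an alkaline phosphatase (r = 0.991), and Sirpa (r = 0.986). For Itga5 they were Adcy4, an adenylate cyclase (r = 0.966), and Nos2, the inducible nitric oxide synthase (r = 0.964). For Itga6 they were Flna, which links integrins to actin (r = 0.902), and Ltbp1 (r = 0.834), both values that include Aged Sham 14. The nearest genes to Itga9 were Fbln2 and Brd7 (r = 0.882 and 0.879), to Itgb4 Cdca7 and Lipe (0.919 and 0.916), and to Itgb1 Dpp8 and Cttn (0.940 and 0.918). For Itga1 they were Gm17108 and Zfp62 (0.897 and 0.895), for Itga2 Rab44 and Arhgap31 (0.914 and 0.900), and for Itgav Dtx3l and Zbtb25 (0.740 and 0.737).

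Among themselves the subunits fell into patterns that differed in direction. Itga3 and Itgb5 were the most alike pair, with r = 0.97 over the 16 libraries, 0.94 after the group means were subtracted, 0.95 among the 8 bleomycin libraries and 0.85 among the 8 sham libraries. Itga1 and Itga2 followed the same direction, with r = 0.74 between them, and r = 0.70 and 0.71 with Itgb5. Itga5, Itga9 and Itgb4 formed the other pattern, with r = 0.81 between Itga5 and Itga9, 0.83 between Itga5 and Itgb4 and 0.76 between Itga9 and Itgb4. Within groups these were 0.53, 0.55 and 0.56. The negative correlation of Itga3 with Itga5 was -0.67 over the libraries and -0.23 within groups, with opposite signs among the 8 sham libraries (0.60) and the 8 bleomycin libraries (-0.54).

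**Figure D4:**
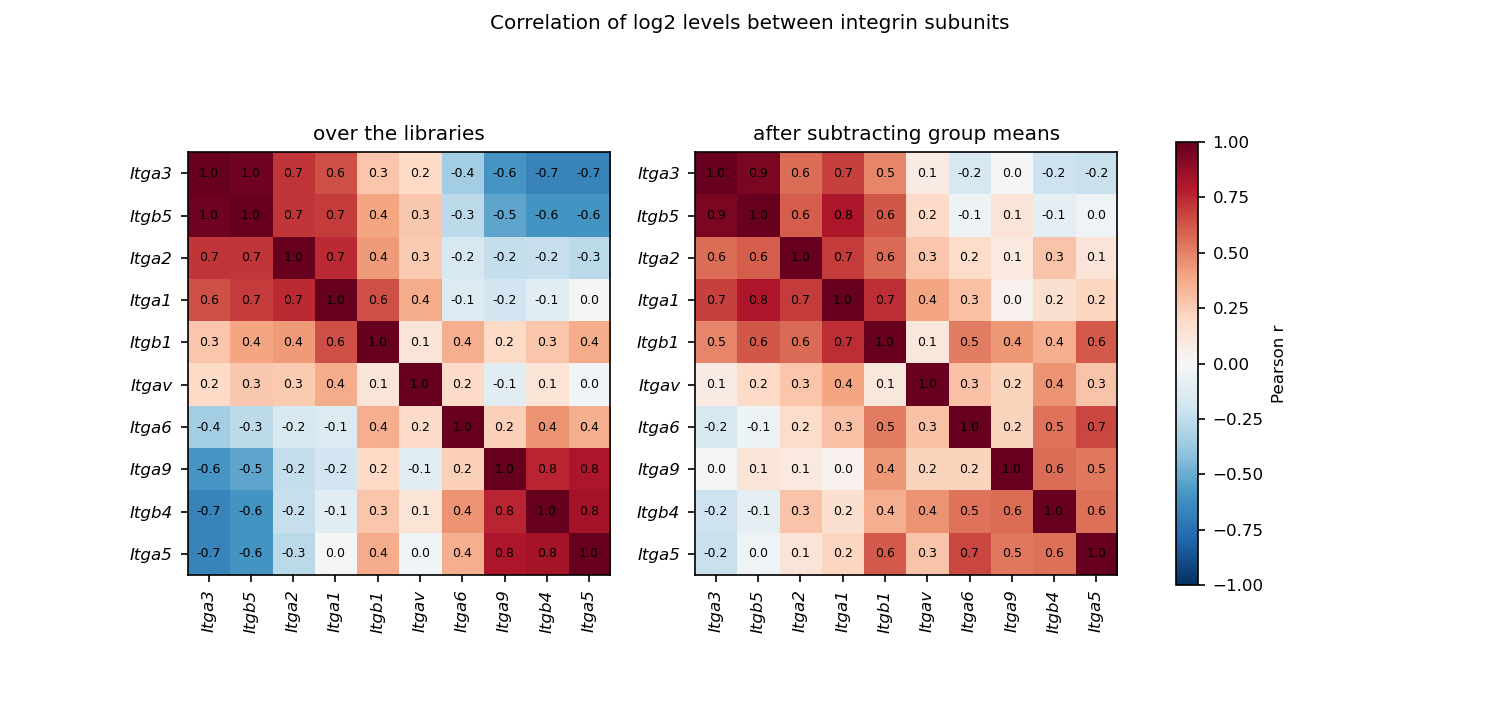
Pearson correlation of log2(normalized count + 1) between subunits over the 16 libraries (left) and after each group's mean was subtracted (right), from -1 in blue to 1 in red. Itga3 and Itgb5 remain highly correlated on the right (0.94), whereas their values with Itga5, Itga9 and Itgb4 lie between -0.23 and 0.13.

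The make-up of the alpha and beta chain transcripts follows from these levels. Itga3 made up 62.8% ± 4.44 (SD, n = 5) of the summed FPKM of the 7 alpha chains in Young Sham and 30.5% ± 9.83 (SD, n = 4) in Young Bleo. It made up 62.7% ± 9.46 (SD, n = 3) in Aged Sham and between 21.2% and 57.7% in the 4 Aged Bleo libraries. The Itga5 share went the other way, from 7.41% ± 1.05 in Young Sham to 25.7% ± 4.38 in Young Bleo and from 6.14% ± 1.56 in Aged Sham to 18.9% ± 9.89 in Aged Bleo. In FPKM, the laminin receptor chain Itga3 thus exceeded the fibronectin receptor chain Itga5 in all 8 sham libraries, with an Itga5 to Itga3 ratio of 0.0756 to 0.155. That ratio was 1.22, 1.14, 0.930 and 0.431 in Young Bleo 17 to 20, and 1.48, 0.603, 0.175 and 0.241 in Aged Bleo 1, 2, 3 and 5. Itga5 exceeded Itga3 in 3 of the 8 bleomycin libraries.

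Among the 3 beta chains Itgb1 held 64.5% ± 2.95 of the summed FPKM in Young Sham and 86.9% ± 6.37 in Young Bleo, and 65.9% ± 7.06 and 79.9% ± 11.8 in the aged groups. Itgb1 itself was not called in these comparisons, and the share of Itgb5 was lower after bleomycin, from 34.5% ± 2.93 in Young Sham to 10.4% ± 6.76 in Young Bleo. The Itgb4 share stayed small, at 1.02% ± 0.228 in Young Sham and 2.68% ± 0.591 in Young Bleo. The shares within a chain type sum to 100%, so they are not independent of each other, and they were not tested.

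**Figure D5:**
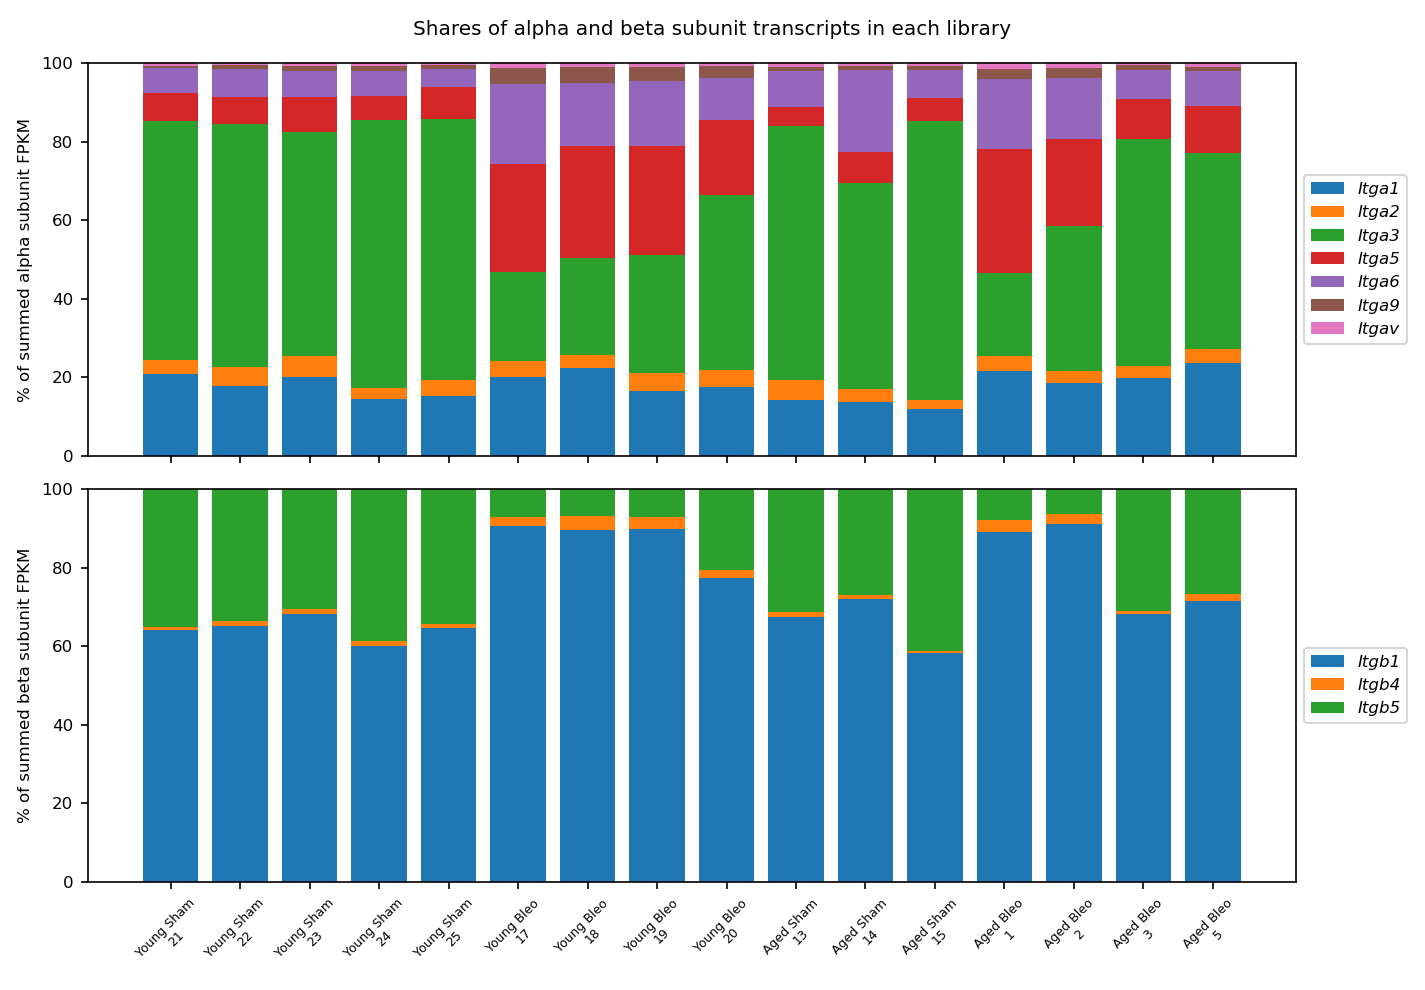
Share of each subunit in the summed FPKM of the 7 alpha chains (top) and of the 3 beta chains (bottom), in percent, with 1 stacked bar per library. Itga3 and Itgb5 take smaller shares in Young Bleo 17 to 19 and Aged Bleo 1 and 2, and Young Bleo 20 and Aged Bleo 3 and 5 lie nearer to the sham libraries.

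The ligands of these receptors were followed in lists that were chosen for the pathway. Of 11 laminin chains 3 rose and 0 fell in Young Bleo against Young Sham, where 7.57% of all genes tested rose and 6.35% fell. Lama1, a chain best known from epithelial basement membranes, rose from 36.8 ± 30.8 normalized counts (SD, n = 5) to 1401 ± 598.4 (SD, n = 4), with a log2 difference of 5.26 (DESeq2 adjusted p = 1.43e-06, edgeR adjusted p = 0.00291). Lama4 and Lama5, the chains of the laminins of vessel walls, rose by 1.47 and 1.28 on the log2 scale (adjusted p = 2.83e-05 and 0.000133). In Aged Bleo against Aged Sham Lama1 and Lama5 rose (log2 differences 3.67 and 1.22, adjusted p = 0.0136 and 0.00503) and the edgeR count was 0. In that comparison 5.85% of all genes were called by DESeq2. Lama4 was lower in Aged Bleo than in Young Bleo, at 962.1 ± 377.2 against 2563 ± 233.9 normalized counts (SD, n = 4 each), with a log2 difference of -1.41 (DESeq2 adjusted p = 0.00198, edgeR adjusted p = 0.122).

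Of 9 collagen ligand genes, the type IV chains Col4a1 and Col4a2 rose in Young Bleo (log2 differences 1.27 and 1.23, adjusted p = 9.22e-05 and 0.000591) and Col4a4 fell by 1.18 on the log2 scale (adjusted p = 0.0443, edgeR adjusted p = 0.110). Col4a1 and Col4a2 also rose in Aged Bleo against Aged Sham, by 1.25 and 1.10 (adjusted p = 0.00284 and 0.0221), but neither was called by edgeR (adjusted p = 0.0554 and 0.0985). Against Young Sham, Aged Bleo had 0 collagen ligands higher and 3 lower (Col1a2, Col3a1 and Col4a4, with log2 differences of -1.25, -1.19 and -1.94), with a list median of -1.17 beside 0.02 for all genes, of which 9.73% were called. In the same comparison 3 of 6 fibroblast markers (summing to 1348 to 2576 normalized counts against 2605 to 5046) and 8 of 8 pericyte and smooth muscle markers were called lower, and their part in the collagens was not tested. Col4a1 and Col4a2 were not called there, with log2 differences of 0.49 and 0.43 (adjusted p = 0.268 and 0.412). Their receptor chains Itga1 and Itga2 were lower in Young Bleo, as given above. Of 9 ligands with an RGD or tenascin-type binding site, 2 rose and 2 fell in Young Bleo, where 13.9% of all genes were called. Fn1, the fibronectin bound by alpha 5, was at 460.1 ± 77.9 normalized counts in Young Sham (SD, n = 5) and 2706 ± 309.4 in Young Bleo (SD, n = 4), a log2 difference of 2.56 (DESeq2 adjusted p = 3.87e-12). It was already higher in Aged Sham than in Young Sham, by 1.54 (adjusted p = 0.00121, and 0.0409 without Aged Sham 14).

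The Fn1 response was smaller in aged mice, with a difference of the responses of -2.03 on the log2 scale (SE 0.482, DESeq2 adjusted p = 0.0153, edgeR adjusted p = 0.336), and without Aged Sham 14 the adjusted p was 0.0839. Spp1, which encodes osteopontin, rose by 4.21 in young and 4.44 in aged mice, each against its own sham group (adjusted p = 1.68e-06 and 6.67e-05). Spp1 was highest in Aged Bleo 1 and 2, with 70626 and 49003 normalized counts, the libraries that also held the most macrophage transcripts, and the part of macrophage RNA in it was not tested. Vtn, the vitronectin bound by alpha v beta 5, fell by 2.72 in young and 2.58 in aged mice (adjusted p = 0.00154 and 0.0256), and the aged call was lost with edgeR (adjusted p = 0.122). The summed markers of pericytes and smooth muscle were lower after bleomycin at both ages, in the young as given above and in the aged at 2477 to 4171 normalized counts against 5863 to 10489, and their part in the Vtn difference was not tested. Edil3, another alpha v ligand, fell by 1.91 in young mice (adjusted p = 0.000244).

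Inside the cell, integrins are tied to actin by adaptors such as talin, kindlin and vinculin. Of 27 adaptor genes 26 were tested, and in Young Bleo against Young Sham 0 rose and 5 fell, where 7.57% of all genes tested rose and 6.35% fell. By edgeR 3 of the 26 were called, where 9.78% of all genes were, and Src and Tns3 were not (adjusted p = 0.0909 and 0.115). The list had a median of -0.30 on the log2 scale beside 0.01 for all genes. Vcl, which encodes vinculin, was at 22310, 28647, 26011, 24454 and 24088 normalized counts in Young Sham and 6300, 7767, 9009 and 16599 in Young Bleo. As for Itga3 and Itgb5, Young Bleo 20 was nearest to sham. The log2 difference of Vcl was -1.34 (DESeq2 adjusted p = 7.26e-05), that of the talin gene Tln2 -1.97 (0.000475), that of Src -1.49 (0.0295) and that of Tns3 -1.24 (0.0411). In Aged Bleo against Aged Sham 6 adaptors fell and 0 rose, among them Fermt3, Zyx, Parvb and Lims1, where 5.85% of all genes were called by DESeq2. By edgeR 1 adaptor was called. Fermt3 encodes the kindlin of blood cells and platelets. Without Aged Sham 14, the library with the most platelet transcripts, 1 of the 6 was called, Lims1, with a log2 difference of -0.73 (adjusted p = 0.00201). With Aged Sham thus at 2 libraries, the differences of Zyx, Parvb and Fermt3 were -0.73, -0.84 and -0.47 (adjusted p = 0.0792, 0.109 and 0.677). The part of platelet RNA in the adaptor differences was not tested.

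The integrin chains outside the 10 were followed as a list, and the cells they came from were not tested. Of 17 such genes 16 were tested, and 3 rose and 2 fell in Young Bleo against Young Sham, beside 7.57% and 6.35% of all genes. Itgax, a chain of macrophages and dendritic cells, rose from 15.4 ± 11.1 normalized counts (SD, n = 5) to 182.9 ± 130.6 (SD, n = 4), with a log2 difference of 3.55 (DESeq2 adjusted p = 0.002), alongside the macrophage markers given above. Itga4, the alpha chain of the VCAM-1 receptor, was at 143.5, 238.1, 227.6, 306.5 and 205.3 normalized counts in Young Sham and at 13.0, 20.8, 14.3 and 54.9 in Young Bleo. It was lower than Young Sham in all 3 other groups, with log2 differences of -3.11 for Young Bleo, -2.60 for Aged Sham and -2.62 for Aged Bleo (DESeq2 adjusted p = 7.63e-09, 7.11e-05 and 1.22e-06, comparisons that share their control libraries). Its difference of responses was 3.10 (adjusted p = 0.012, edgeR adjusted p = 0.336), and 0.0571 without Aged Sham 14.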

How the data were processed

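RNA was sequenced from ECs sorted from 16 mouse lungs, and p-values measure the spread between these libraries. The authors aligned reads with STAR 2.5.2b to mm10 and counted them with featureCounts of Subread, per the labels. The deposited table holds whole-number read counts and FPKM for 43346 genes. The deposited FPKM values are scaled by gene length and a library total set by the authors. Which annotation was counted, whether strand was used and how reads with several positions were handled is not given in the sources used here, and the labels (SMART-Seq v4 with Nextera) and the methods (TruSeq with poly(A) selection) name different kits, so reads from overlapping genes may not be separable. No counts fell on mitochondrial genes (0 in every library), so RNA quality was not read from them. By the methods of the study, RNA integrity numbers ran lower in the sham than in the bleomycin groups at each age, with slightly overlapping ranges. The part of RNA integrity in the differences was not tested.

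Counts were fitted with DESeq2 1.42.0 (R 4.3.3), the tool of the study's methods, in 1 model of 16 libraries with group as its only term, a Wald test, unshrunken log2 differences and Benjamini-Hochberg adjustment over all genes. The call needed a log2 difference of 0.5 or more in either direction with an adjusted p no higher than 0.05, in 5 pairwise comparisons and in the aged minus the young response. edgeR 4.0.16 (quasi-likelihood test), limma 3.58.1 (voom, and trend on log2(FPKM + 0.1) or + 1), other scalings and filters, and leaving out each library were alternatives. When tested on simulated data for Young Bleo against Young Sham, DESeq2 made more false calls than its adjusted p allows and edgeR did not. The simulated counts were drawn with the spreads that edgeR had estimated, so they cannot rank these tools. The edgeR adjusted p is given beside the calls of the subunits. Replicate pairs differed by more than sampling noise (chi-square per degree of freedom 35.1 to 459). Depth ranged from 20.9 to 71.0 mega-counts.

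The subunits, gene lists and tests were chosen with earlier results of these data known. Text names all 10 subunits, for each the 2 genes most correlated with it (mean normalized count of at least 50), and per pathway list and comparison at most the 4 called genes with the largest difference, with listed cell type markers. Itga2b and Itgb3, and values in single libraries, were singled out after they had been seen.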

Additional observations from a re-analysis of the deposited data

Results flagged for a closer look

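In groups of 4 to 10 libraries, a value was marked when the gap between the extreme library and its nearest neighbour exceeded Dixon's critical share of the group's range at the 95% level. Of 30 combinations of subunit and group examined, 2 met this, and chance alone marks about 1 in 20. Both lay in Young Bleo 20, where the Itga3 normalized count was 17817 against 5390 to 6922 in the other 3 libraries, and the Itgb5 normalized count was 8095 against 1439 to 1728. The gap took 0.877 of the range for Itga3 and 0.957 for Itgb5. Aerocyte markers summed to 230460 normalized counts in that library and to 53103 to 93482 in the other 3, and their part in the values was not tested.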

How the results depend on the processing

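The 10 subunits were recounted under each alternative. In Young Bleo against Young Sham 7 were called, 4 with edgeR and 3 to 7 when a library was left out. In Aged Sham against Young Sham 0 were called, 1 (Itga1) in a fit on the groups compared, 1 (Itga5) without Aged Sham 14 and Aged Bleo 1 together (a fit chosen after seeing the data), and 0 to 1 with a library left out. In Aged Bleo against Young Sham 0 were called, 1 after a filter on low counts, 3 in a fit on the groups compared and 0 to 4 with a library left out. In Aged Bleo against Aged Sham 1 was called, 0 with limma voom, 2 with TMM scaling and 1 to 2 with a library left out. In Aged Bleo against Young Bleo 1 was called, 0 with edgeR, with limma voom and with limma-trend at either pseudocount, and 0 to 2 with a library left out. For the difference of responses 0 were called, and 0 to 1 with a library left out. The log2 difference of Itga6 changed sign without Aged Sham 14, with a range of -0.043 to 1.00 in Aged Sham against Young Sham and of -0.69 to 0.35 in Aged Bleo against Aged Sham over the fits that left out a library. Without Aged Sham 14 and Aged Bleo 1 together these were -0.043 and 0.23. The cause of these changes was not tested. Of the nearest genes by pattern, 1 of the 10 subunits kept the same nearest gene after each group's mean was subtracted. Itga3, Itga5 and Itga9 kept their calls in Young Bleo against Young Sham in all 8 other settings and all 9 fits with a library left out. No paired analysis was possible because no library number is used in more than 1 group. Depth did not limit the subunits, whose lowest count in a library was 218.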

Other observations

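The beta 5 chain is known to pair with alpha v alone, yet the transcript levels of these partners were far apart. In FPKM, Itgb5 exceeded Itgav 70.5 ± 8.16-fold in Young Sham (SD, n = 5) and 60.6 ± 19.6-fold in Aged Sham (SD, n = 3). The size of this ratio rests on the deposited gene lengths, 3362 bases for Itgb5 and 10744 for Itgav, by which FPKM divides. The ratio ranged from 9.02 to 40.8 in the 4 Young Bleo libraries and from 9.49 to 101 in the 4 Aged Bleo libraries. Itgav itself lay between 428 and 768 normalized counts in all 16 libraries, so the ratio moved with Itgb5. Gm13684, a gene on the opposite strand that shares 634 exonic bases with Itgav, had 0 to 23 counts in the libraries.

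The alpha chains as a sum also moved against their main partner. Their summed FPKM was 1.21 ± 0.160 times that of Itgb1 in Young Sham (SD, n = 5), 0.718 ± 0.0657 times in Young Bleo (SD, n = 4), 1.06 ± 0.159 times in Aged Sham (SD, n = 3) and 0.770 ± 0.190 times in Aged Bleo (SD, n = 4). Every Young Bleo library lay below every Young Sham library, while the level of Itgb1 overlapped between the groups. The FPKM ratio of alpha 6 to its other partner beta 4 was 12.6 in Aged Sham 14, the library with the most platelet transcripts, and 2.65 to 7.90 in the other 15 libraries. These ratios were chosen after the levels had been seen and were not tested.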
